A study of Mus musculus with 9 samples.

Results

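The genes described here are 9 that are known to hold cells in, or release them from, the block on division called senescence: Cdkn2a, Cdkn2b, Cdkn1b, Trp53, Rb1, Tert, Bmi1, Myc and Ccnd1. They were chosen by symbol from the 23366 gene entries that both deposited count tables share, with earlier results of these data known. All 9 passed the filter on low counts in every comparison. RNA-seq was performed on 6 libraries of mSGc, a spontaneously immortalized epithelial line from the submandibular salivary glands of adult male C57BL/6 mice, and on 3 libraries of IMOK, immortalised mouse oral keratinocytes of the same strain. The mSGc libraries came from monolayers at passage 2 (P2) and P4 in progenitor media, and at P10 and P25 in both progenitor and differentiating media, with 1 library for each condition. The IMOK libraries are numbered replicates 1 to 3, were grown in a medium named for that line and carry the passage label Early. Nothing in the labels says whether these replicates came from separate cultures, so the spread between them may be technical. The 6 mSGc libraries are different conditions and not replicates of one. In comparisons with IMOK their spread therefore holds passage and medium as well, and p-values measure the spread between libraries in this sense. Cell line, medium and experiment cannot be told apart in any comparison of mSGc with IMOK. The labels do not say how IMOK was immortalised.

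As background, primary rodent cells placed in culture usually stop dividing after a limited number of passages, and lines that go on dividing without an introduced oncogene are called spontaneously immortalized. The Cdkn2a locus encodes a pair of unrelated proteins, p16Ink4a, which inhibits the kinases Cdk4 and Cdk6, and p19Arf, which inhibits Mdm2 and so protects p53. Its neighbour Cdkn2b encodes p15Ink4b, a second inhibitor of Cdk4 and Cdk6, while Cdkn1b encodes p27Kip1, which inhibits cyclin E and cyclin A kinases. Trp53 encodes p53, and Rb1 encodes the retinoblastoma protein that holds E2F factors inactive until cyclin D kinases, with Ccnd1 as a regulatory subunit, phosphorylate it. Tert encodes the catalytic subunit of telomerase, Bmi1 encodes a Polycomb protein that represses the Cdkn2a locus, and Myc encodes a transcription factor that drives growth and can activate Tert and p19Arf.

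Total counts per library ran from 6237884 (P25 in differentiating media) to 18444963 (IMOK replicate 1), and 3 counts, the limit that a count of 0 allows, corresponded to 0.163 to 0.481 CPM, counts scaled to the library total. This limit covers counting error only. IMOK replicate 1 stood apart from its group, with a chi-square per degree of freedom over genes of 150 and 180 against the other IMOK libraries, compared with 21.3 between the other two, so results against IMOK are given with and without it where it decides them. All 7 epithelial markers examined were at 1 TPM or more in every library, TPM being counts scaled by gene length and library. The summed level of 10 mesenchymal markers was 417 TPM at P2 and 9.41 to 238 TPM in the other mSGc libraries, and 1.55 to 38.1 TPM in IMOK, and 1 gene, Postn, which encodes the matrix protein periostin, held 394 of the 417 TPM at P2 and 237 of the 238 TPM at P10 in progenitor media. Without Postn the other 9 markers summed to 23.2 TPM at P2, 0.32 to 4.48 TPM in the other mSGc libraries and 1.34 to 6.75 TPM in IMOK, with Lum, a stromal proteoglycan gene, at 0 counts in 7 of 9 libraries. Of 8 leukocyte markers only Cd68 reached 1 TPM in any library, and none of 5 endothelial markers did. In bulk RNA, fewer cells expressing a gene and less RNA per cell cannot be told apart.

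The deposited tables count reads over the whole Cdkn2a gene, so that p16Ink4a and p19Arf transcripts are added together. The entry lies on mm9 at chr4:88920377-88940523 on the minus strand and has 4 exons of 1136 bases in all, of which 643 bases (56.6%) in 2 exons are shared by both transcripts. Each transcript has a first exon of its own, 207 bases long for p16Ink4a (chr4:88927890-88928096) and 286 bases long for p19Arf (chr4:88940238-88940523). The coding parts of these first exons are shown because they are the only coding sequence that separates the products, with the start codon in capitals and the strand of the gene written 5′ to 3′.
p16Ink4a, chr4:88927890-88928015, 126 bases: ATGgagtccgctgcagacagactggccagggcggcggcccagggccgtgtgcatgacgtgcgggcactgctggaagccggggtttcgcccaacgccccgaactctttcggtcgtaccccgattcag
p19Arf, chr4:88940238-88940427, 190 bases: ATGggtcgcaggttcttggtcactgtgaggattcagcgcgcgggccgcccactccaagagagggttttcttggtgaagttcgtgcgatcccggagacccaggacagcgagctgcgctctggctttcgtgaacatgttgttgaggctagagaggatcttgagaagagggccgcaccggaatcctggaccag
The first stretch is a whole number of codons and the second leaves 1 base over, so the shared next exon is read in different frames. No value below can be assigned to p16Ink4a or to p19Arf alone.

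Cdkn2a had its lowest levels at the latest passage and its highest in IMOK. Its level was 90.0 TPM at P2, 75.2 at P4, 54.2 at P10 and 18.2 at P25 in progenitor media, and 35.2 at P10 and 14.9 at P25 in differentiating media. In IMOK it was 423 TPM in replicate 1, 204 in replicate 2 and 180 in replicate 3, which is 269 ± 134 TPM (SD, n = 3). Every mSGc library lay below every IMOK library, and the levels in progenitor media followed the order of the passages. The counts behind these values ranged from 53 (P25 in differentiating media) to 4098 (IMOK replicate 1).

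Cdkn2a was the 1 gene of the 9 called against IMOK, 4.76-fold lower in mSGc (log2 fold change -2.25, SE 0.50, edgeR adjusted p = 0.0160). Of all genes tested in this comparison 14.9% were called, in either direction. The levels of Cdkn2a did not overlap between the lines, which was true of 1 of the 9 genes and of 22.3% of all genes tested. Without IMOK replicate 1 the difference was -1.86 and the call was lost (edgeR adjusted p = 0.0521). The marker sums also differed between the lines, with 13130 to 24100 TPM for the epithelial list in mSGc and 10070 to 11720 in IMOK. Of its 7 genes 5 had a positive log2 fold change and 2 a negative one. Epcam was lower in mSGc (307 to 692 TPM) than in IMOK (777 to 852 TPM). The leukocyte list summed to 2.01 to 4.15 TPM in mSGc and 4.75 to 33.5 in IMOK. Its sum was highest in replicate 1, where Cd68 alone held 33.4 of the 33.5 TPM. The part of the marker sums in the result was not tested. At P10 alone, with 2 mSGc libraries, the log2 fold change was -2.37 (SE 0.43, edgeR adjusted p = 0.0464), and Cdkn2a was again the single gene called, where 4.2% of all genes were. That call was lost without IMOK replicate 2 or 3 (edgeR adjusted p = 0.147 and 0.109), where 36 of 12717 and 69 of 12815 genes were called. It held without replicate 1 (log2 fold change -1.99, edgeR adjusted p = 0.0132), where 3416 of 12602 genes were called. The log2 fold change was -2.82 without the P10 library in progenitor media and -2.03 without that in differentiating media.

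Across the 6 mSGc libraries, with medium in the same fit, the log2 level of Cdkn2a changed by -0.58 per doubling of the passage number (SE 0.12), which did not pass the threshold in edgeR (adjusted p = 0.109). DESeq2 gave a slope of -0.59 and called it (adjusted p = 0.00123). Between P2 and P25 in progenitor media the level was 4.94-fold lower, and between P10 and P25 it was 2.97-fold lower in progenitor and 2.37-fold lower in differentiating media. The estimated slope lay between -0.76 and -0.40 when each library was left out in turn. Without the P10 library in progenitor media it passed in edgeR (adjusted p = 0.0401). The mesenchymal marker sum given above was also highest at P2 within mSGc, with or without Postn, and its part in these slopes was not tested. With Postn it was lowest in both P25 libraries, but without Postn P25 in differentiating media (4.48 TPM) lay above P4 (1.25 TPM) and both P10 libraries (0.87 and 4.26 TPM). Without the P2 library the slope was -0.76 (edgeR adjusted p = 0.431).

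Cdkn2b, which lies 11.7 kb from Cdkn2a on mm9 (chr4:88952198-88956941, minus strand), had a similar order within mSGc. Its level was 92.5 TPM at P2, 48.7 at P4, 59.9 at P10 and 20.4 at P25 in progenitor media, and 57.1 at P10 and 18.5 at P25 in differentiating media. IMOK had 211, 80.0 and 68.2 TPM, so the P2 library lay above 2 of the 3 IMOK libraries and the lines overlapped. Both P25 libraries were below all other libraries. The log2 fold change was -1.05 against IMOK (SE 0.47, edgeR adjusted p = 0.159) and -0.81 at P10 (adjusted p = 0.330). Without IMOK replicate 1 these values were -0.46 and -0.24 (edgeR adjusted p 0.551 and 0.378). The slope per doubling of passage was -0.51 (SE 0.14, edgeR adjusted p = 0.194). DESeq2 called the slope (-0.52, adjusted p = 0.0273). Over the 9 libraries, which differ in depth and line, Pearson's r of log2(CPM + 1) between Cdkn2a and Cdkn2b was 0.896, given as a description. For this and later values of r, CPM used library totals multiplied by TMM factors.

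**Figure D1:**
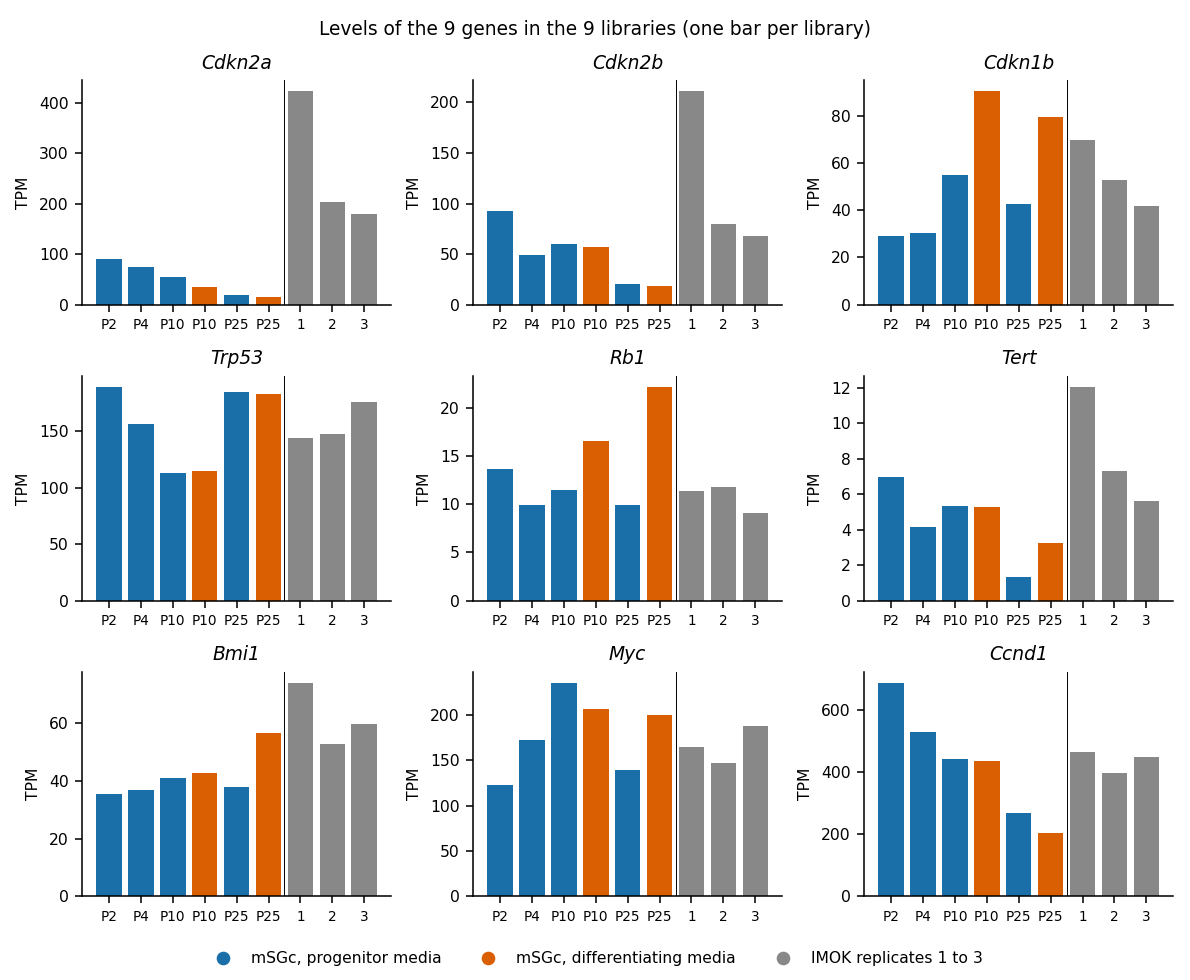
Level in TPM (vertical axes, from 0) of each of the 9 genes in the 9 libraries, 1 bar per library, with mSGc in progenitor media in blue, mSGc in differentiating media in orange and the 3 IMOK replicates in grey. Cdkn2a is lower in all 6 mSGc libraries (14.9 to 90.0 TPM) than in IMOK (180 to 423 TPM), and Cdkn2a, Cdkn2b and Ccnd1 have their lowest bars at P25.

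The genes around the pair differed from it in their values over passage. Of 23 other entries within 500 kb, among them a cluster of interferon genes, 17 had no count above 3 in any library. Ifnz, Gm13288 and Dmrta1 had at most 10 counts in a library. Dmrta1, on the Cdkn2b side, had 5 counts at P2, 7 at P4 and 9 at P10 in progenitor media. It had 7 at P10 in differentiating media and 0 in both P25 libraries, as the pair was lowest there. Mtap, the gene for methylthioadenosine phosphorylase, lies 93.4 kb from Cdkn2a, and its level was 146 TPM at P2, 132 at P4, 91.1 at P10 and 504 at P25 in progenitor media, and 196 at P10 and 616 at P25 in differentiating media. IMOK had 386, 225 and 248 TPM of Mtap, inside the mSGc range. Both P25 libraries thus had the highest Mtap levels of the 9 and the lowest Cdkn2a and Cdkn2b levels.

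Gm12603, an unnamed gene on the plus strand, had 32.9 TPM at P2 and 205 at P25 in progenitor media, and 5.39 to 26.6 TPM in IMOK. Mir31, the entry of a microRNA precursor 106 bases long, had 45 counts at P2 and 328 at P25 in progenitor media, which cannot be told apart from reads of a longer transcript across it. The slopes per doubling of passage were 0.59 for Mtap, 0.84 for Gm12603 and 0.70 for Mir31, and none passed in edgeR (adjusted p 0.276, 0.154 and 0.182). Over the 18 other genes tested within 5 Mb of Cdkn2a, Cdkn2b among them, the median slope was 0.46. Over the 804 other genes tested on chromosome 4, again with Cdkn2b, it was -0.041. Against IMOK the median log2 fold change of the genes within 5 Mb was 1.26 and of those on the chromosome 0.31, so Cdkn2a and Cdkn2b were lower where their neighbourhood was, in the median, higher. No difference between the pair and its neighbours was tested.

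**Figure D2:**
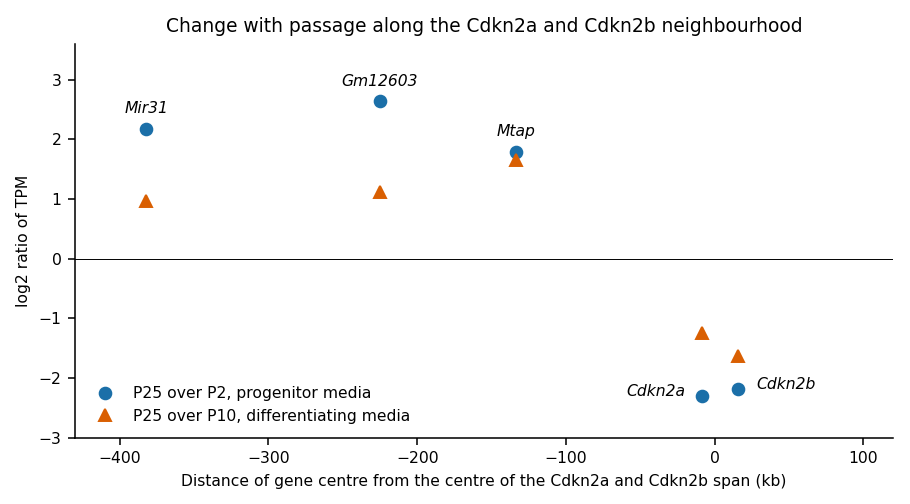
log2 ratio of TPM between late and earlier mSGc libraries (vertical axis) for the 5 entries near Cdkn2a with over 100 counts in a library, placed by distance in kb from the centre of the Cdkn2a and Cdkn2b span. Circles compare P25 with P2 in progenitor media and triangles P25 with P10 in differentiating media, and both lie below 0 for Cdkn2a and Cdkn2b and above 0 for Mtap, Gm12603 and Mir31.

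The promoters of the pair are shown because the levels of Cdkn2a and Cdkn2b had similar orders over passage. RefSeq (GRCm38.p6, a later build than that of the counts) gave 7 windows for 6 of the 9 genes, each from 250 bases before to 50 after a start site, with an entry for Cdkn2a, Cdkn2b, Cdkn1b, Trp53, Tert and Bmi1. The windows were searched on both strands for the E-box CACGTG, which Myc with its partner Max can bind and which reads the same on both strands, and for the E2F site TTTCCCGC (GCGGGAAA on the other strand), and matches are in capitals.
Cdkn2a, start before the p16Ink4a exon, GRCm38 chr4:89282143-89282442, minus strand: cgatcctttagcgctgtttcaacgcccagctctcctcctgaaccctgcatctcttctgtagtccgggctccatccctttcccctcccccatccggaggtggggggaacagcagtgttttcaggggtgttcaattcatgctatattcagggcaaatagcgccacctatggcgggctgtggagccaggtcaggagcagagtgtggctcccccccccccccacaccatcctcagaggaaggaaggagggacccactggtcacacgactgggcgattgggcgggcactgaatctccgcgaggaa
Cdkn2a, start on the p19Arf side, GRCm38 chr4:89294570-89294869, minus strand: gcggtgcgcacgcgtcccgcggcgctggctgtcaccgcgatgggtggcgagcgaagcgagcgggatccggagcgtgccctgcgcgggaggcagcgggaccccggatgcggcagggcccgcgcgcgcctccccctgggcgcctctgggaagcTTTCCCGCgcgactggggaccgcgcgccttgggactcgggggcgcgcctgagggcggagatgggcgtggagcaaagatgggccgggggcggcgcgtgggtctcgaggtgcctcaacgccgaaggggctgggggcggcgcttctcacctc
Cdkn2b, GRCm38 chr4:89310983-89311282, minus strand: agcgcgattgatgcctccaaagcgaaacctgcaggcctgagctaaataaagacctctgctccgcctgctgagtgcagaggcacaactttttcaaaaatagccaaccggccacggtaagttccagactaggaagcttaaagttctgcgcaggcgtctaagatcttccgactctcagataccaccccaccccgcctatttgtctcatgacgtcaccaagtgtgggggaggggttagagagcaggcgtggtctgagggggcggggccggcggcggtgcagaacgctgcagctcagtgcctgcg
The window on the p19Arf side held 1 E2F site, 77.0% G or C and 45 CpG, against 60.3% and 12 CpG in the window before the p16Ink4a exon and 57.7% and 18 CpG in that of Cdkn2b. The E2F letters occurred in 1.07% of the 32817 promoter windows of the table and the E-box in 7.15%. Neither motif overlapped the other. A match of letters is a description and not a binding site.

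The E-box was present in 2 of the 7 windows, those of Bmi1 and Trp53, of which 40 bases around the match are shown.
Bmi1, GRCm38 chr2:18676786-18676825, plus strand: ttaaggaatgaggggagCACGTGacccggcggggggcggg
Trp53, GRCm38 chr11:69580352-69580391, plus strand: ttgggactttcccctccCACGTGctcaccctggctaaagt
In Bmi1 the match began 215 bases before the start site and in Trp53 it lay after it.

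Cdkn1b (chr6:134870419-134875543) had its highest levels in differentiating media. Its level was 29.0 TPM at P2, 30.4 at P4, 55.0 at P10 and 42.7 at P25 in progenitor media, and 90.6 at P10 and 79.5 at P25 in differentiating media. IMOK had 69.6, 52.95 and 41.8 TPM, between the mSGc extremes. Both libraries in differentiating media were above all other libraries, 1.65-fold above the matched library at P10 and 1.86-fold at P25. The log2 difference between media was 0.76 (SE 0.26) and did not pass in edgeR (adjusted p = 0.483), and the slope per doubling of passage was 0.23 (SE 0.099, adjusted p = 0.387).

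Of 4 further CDK inhibitor genes edgeR called 1 higher in mSGc, where it called 6.58% of all genes higher. This was Cdkn1a, which encodes p21 and is a known target of p53, with a log2 fold change of 3.39 (SE 0.41, edgeR adjusted p = 9.15e-04). Its level was 592 TPM at P2, 415 at P4, 389 at P10 and 207 at P25 in progenitor media, 410 at P10 and 177 at P25 in differentiating media, and 49.1, 46.8 and 25.1 TPM in IMOK. All mSGc libraries were above all IMOK libraries, and both P25 libraries were the lowest of mSGc. Its slope over passage was -0.37 per doubling (SE 0.10, edgeR adjusted p = 0.185).

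Trp53 transcripts were present at 113 TPM or more in every library of both lines. The level of Trp53 (chr11:69393861-69405375) was 189 TPM at P2, 157 at P4, 113 at P10 and 184 at P25 in progenitor media, 114 at P10 and 182 at P25 in differentiating media, and 144, 147 and 176 TPM in IMOK. The lowest values were those of both P10 libraries, and the lines overlapped. The log2 fold change against IMOK was 0.23 (SE 0.25, edgeR adjusted p = 0.583), the slope over passage 0.081 (SE 0.12, adjusted p = 0.837) and the difference between media -0.34 (SE 0.38, adjusted p = 0.899). The exon listings of Trp53 and of Myc differed between the tables of the 2 lines although the gene lengths were equal, so that their comparison between lines is less certain than that of the other 7 genes, whose exons were the same.

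Of 15 well-known transcriptional targets of p53, 13 were called higher in mSGc than in IMOK and none lower, where 6.58% of all genes were called higher. Targets of p53 had been examined in earlier results of these data, so this count is not an independent test. The median log2 fold change over the 15 was 1.69, against 0.0023 over all genes tested. At P10 alone 11 of the 15 were called higher, where 2.34% of all genes were, with a median of 2.07. Trp53inp1, which promotes p53-dependent cell death, had a log2 fold change of 4.20 (SE 0.68, edgeR adjusted p = 0.00364), with 51.0 to 182 TPM in mSGc and 1.72 to 14.1 in IMOK. Eda2r, a receptor of the TNF receptor family, differed by 4.18 (SE 0.60, adjusted p = 0.00208), and Gdf15, a secreted stress factor, by 3.82 (SE 0.80, adjusted p = 0.0123). Btg2, an antiproliferative gene, differed by 3.75 (SE 0.65, adjusted p = 0.00514), with 60.8 to 282 TPM in mSGc and 6.27 to 27.9 in IMOK. Leaving out IMOK replicate 2 left 9 of the 15 called, where 738 of all 13156 genes were called. At P10 the number called was 2 without IMOK replicate 2 and 4 without replicate 3. All genes called there were 36 of 12717 and 69 of 12815. Without replicate 1 it was 15, where 3416 of all 12602 genes were called. With 1 P10 library left the mSGc side has no spread, so no count is given.

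Mdm2, which encodes the ubiquitin ligase of p53 and is also one of the 15 targets, had 242 TPM at P2, 140 at P4, 191 at P10 and 92.6 at P25 in progenitor media, 205 at P10 and 119 at P25 in differentiating media, and 47.5, 48.0 and 48.7 TPM in IMOK. All mSGc libraries were above all IMOK libraries (log2 fold change 1.97, SE 0.26, edgeR adjusted p = 0.00157). Within mSGc 14 of the 15 targets had a negative slope over passage, with a median of -0.25 against 0.0032 over all genes. Of the 15 slopes edgeR called 0 (4 at an unadjusted p under 0.05, as had 1648 of all 12451 genes), limma voom 0 and DESeq2 2. Over passage DESeq2 called 5.62% of all genes. Of 10 regulators of p53, Mdm2 was called higher against IMOK and Trp53bp1, a DNA damage adaptor, lower, with a log2 fold change of -0.63 (edgeR adjusted p = 0.0205). Of all genes 14.9% were called in that comparison, in either direction.

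Rb1 had the lowest level of the 9 genes other than Tert, and lay above Tert, in 7 of the 9 libraries. The exceptions were P25 in differentiating media, where Cdkn2a and Cdkn2b were also lower, and IMOK replicate 1, where Rb1 lay below Tert. The level of Rb1 (chr14:73595309-73725598) was 13.6 TPM at P2, 9.90 at P4, 11.5 at P10 and 9.95 at P25 in progenitor media, 16.6 at P10 and 22.2 at P25 in differentiating media, and 11.4, 11.8 and 9.12 TPM in IMOK. Both libraries in differentiating media had the highest values, 1.45-fold above the matched library at P10 and 2.23-fold at P25. The log2 difference between media was 0.67 (SE 0.28, edgeR adjusted p = 0.603), that against IMOK was 0.58 (SE 0.26, adjusted p = 0.162), and the slope over passage was 0.011 (SE 0.097, adjusted p = 0.977).

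Ccnd1, the cyclin D1 gene, had the highest level of the 9 genes in all 9 libraries. The level of Ccnd1 (chr7:152115836-152125830) was 687 TPM at P2, 528 at P4, 442 at P10 and 267 at P25 in progenitor media, 435 at P10 and 204 at P25 in differentiating media, and 464, 397 and 448 TPM in IMOK. P2 and P4 were above the IMOK range and both P25 libraries below it. The slope per doubling of passage was -0.35 (SE 0.099), which did not pass in edgeR (adjusted p = 0.202) and was called by DESeq2 (adjusted p = 0.00857), and the level was 2.57-fold lower at P25 than at P2 in progenitor media. Against IMOK the log2 fold change was 0.17 (SE 0.32, adjusted p = 0.769).

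Of 14 further genes of the RB pathway edgeR called 2 against IMOK, a share near the 14.9% of all genes. At P10 edgeR called 0 (4 at an unadjusted p under 0.05, as had 3244 of all 13018 genes). DESeq2 called 5 against IMOK, where it called 2900 of all 12739 genes, and 4 at P10, where it called 2231 of all 12996. The numbers for limma voom were 3 against IMOK (2142 of all 12885 genes) and 0 at P10 (399 of all 13018). The 2 that edgeR called were E2f2, an activating E2F gene, with a log2 fold change of 2.35 (SE 0.54, edgeR adjusted p = 0.0178) and Rbl2, which encodes the RB relative p130, with 0.81 (SE 0.24, adjusted p = 0.0486), both higher in mSGc. Cdk4, the kinase that p16Ink4a and p15Ink4b inhibit, had 505 to 615 TPM in mSGc and 554 to 692 in IMOK (log2 fold change 0.012, adjusted p = 0.976). Cdk6, its relative, had 9.67 to 21.2 TPM in mSGc and 28.8 to 41.2 in IMOK without overlap, and did not pass (log2 fold change -0.78, SE 0.24, edgeR adjusted p = 0.0523). Rbl1, which encodes p107, had a log2 fold change of -0.89 (adjusted p = 0.174) and E2f1 of -0.49 (adjusted p = 0.308). All 16 E2F targets of S phase had a positive slope over passage, with a median of 0.36 per doubling against 0.0032 over all genes. Of the 16 slopes edgeR called 0 (3 at an unadjusted p under 0.05, as had 1648 of all 12451 genes), as did DESeq2 and limma voom. At P10 against IMOK all 16 had negative values, with a median log2 fold change of -0.87 against -0.012 over all genes. There edgeR and limma voom called 0 of them and DESeq2 1, where DESeq2 called 2231 of all 12996 genes.

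**Figure D3:**
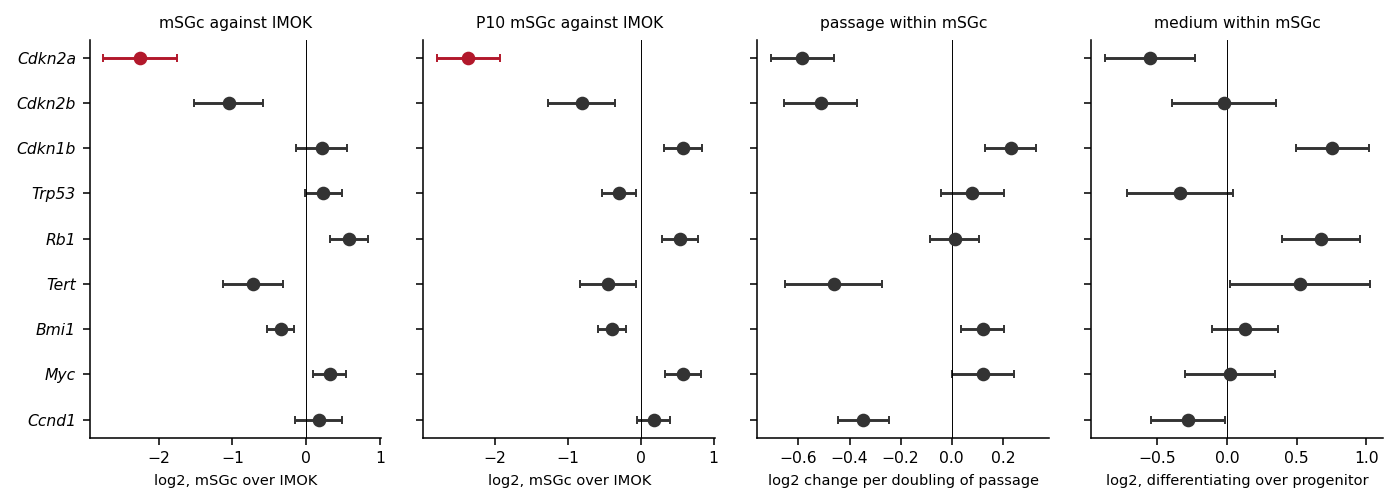
log2 differences (horizontal axes) of the 9 genes with the standard error as a bar, for mSGc against IMOK, P10 mSGc against IMOK, passage within mSGc (per doubling) and medium within mSGc (differentiating over progenitor), each panel with its own scale. Red marks an edgeR adjusted p under 0.05, which Cdkn2a alone reached (-2.25 and -2.37 against IMOK).

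Tert was detected in every library at low levels. The level of Tert (chr13:73764449-73786489) was 6.95 TPM at P2, 4.16 at P4, 5.33 at P10 and 1.34 at P25 in progenitor media, 5.31 at P10 and 3.25 at P25 in differentiating media, and 12.1, 7.31 and 5.64 TPM in IMOK. The counts were 126, 128, 84 and 39 in progenitor media, 115 and 35 in differentiating media, and 352, 216 and 155 in IMOK. Both P25 libraries had the lowest values, and P2 lay above the lowest IMOK library. The slope per doubling of passage was -0.46 (SE 0.19, edgeR adjusted p = 0.363) and the log2 fold change against IMOK was -0.72 (SE 0.41, adjusted p = 0.266), or -0.44 without IMOK replicate 1. The level was 5.19-fold lower at P25 than at P2 in progenitor media, and without the P25 library in progenitor media the slope was -0.17.

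Over the 9 libraries Pearson's r of log2(CPM + 1), with TMM factors, with Tert was 0.898 for Cdkn2b and 0.809 for Cdkn2a. This is a description over libraries that differ in line and depth. Of 15 other genes of telomerase and the shelterin complex 14 were tested. Against IMOK edgeR called 0 of them (4 at an unadjusted p under 0.05, as had 3922 of all 12885 genes). Over passage it called 0 (3 at an unadjusted p under 0.05, as had 1648 of all 12451 genes). DESeq2 and limma voom called 0 in both. Terc, the template RNA of telomerase, did not pass the filter, with 0 to 11 counts in a library.

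Bmi1 levels in 5 of the 6 mSGc libraries lay below every IMOK library. The level of Bmi1 (chr2:18598645-18608256) was 35.6 TPM at P2, 36.7 at P4, 40.8 at P10 and 37.9 at P25 in progenitor media, 42.8 at P10 and 56.7 at P25 in differentiating media, and 74.0, 52.8 and 59.7 TPM in IMOK. Only P25 in differentiating media reached the IMOK range. The log2 fold change against IMOK was -0.34 (SE 0.18, edgeR adjusted p = 0.234) and the slope over passage 0.12 (SE 0.084, adjusted p = 0.588).

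Of 20 further Polycomb genes edgeR called 2 against IMOK, a smaller share than the 14.9% of all genes. At P10 it called 0 (6 at an unadjusted p under 0.05, as had 3244 of all 13018 genes), as did limma voom. DESeq2 called 1 higher there, where it called 2231 of all 12996 genes. The 2 that edgeR called were lower in mSGc, Pcgf5, a relative of Bmi1 in variant Polycomb complexes, with -0.91 (SE 0.23, edgeR adjusted p = 0.0290) and Kdm2b, a histone demethylase of such a complex, with -0.57 (SE 0.17, adjusted p = 0.0457). Ezh2, which methylates histone H3 in the second Polycomb complex, had 42.4 to 85.3 TPM in mSGc and 50.1, 109 and 114 in IMOK (log2 fold change -0.43, adjusted p = 0.396). Of 16 other regulators of the Cdkn2a locus edgeR called 3 higher and 1 lower against IMOK, where 14.9% of all genes were called. There limma voom called 1 higher and 1 lower, and 2142 of all 12885 genes. At P10 edgeR called 2 higher and 0 lower, where it called 4.2% of all genes. Tbx2 and Tbx3, T-box repressors known to repress p19Arf, had log2 fold changes of 4.59 (SE 1.13, edgeR adjusted p = 0.0236) and 3.54 (SE 0.40, adjusted p = 5.69e-04), Id2, an inhibitor of helix-loop-helix factors, had 4.99 (SE 1.48, adjusted p = 0.0475), and Dmtf1, an activator of p19Arf, had -0.62 (SE 0.15, adjusted p = 0.0239). Id2 had 90.0 TPM at P10 and 45.6 at P25 in differentiating media but 19.5 at P2, 9.98 at P4, 1.03 at P10 and 1.20 at P25 in progenitor media, and 0.49 to 1.66 TPM in IMOK. Its levels in progenitor media at P10 and P25 thus lay inside the IMOK range. The levels of Tbx3 were low, from 2.995 to 6.27 TPM in mSGc and 0.32 to 0.58 TPM in IMOK.

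Over passage edgeR called 1 of the 184 genes of all lists, of which not all were tested, and this was Tbx2. That share is near the 0.49% of all genes that edgeR called. DESeq2, which called 5.62% of all genes over passage, called further genes of several lists, among them 4 of these 16 regulators. From limma voom, which called 75 of all 12451 genes, came 1 of the 16 and 1 epithelial marker. The level of Tbx2 was 0.80 TPM at P2, 1.09 at P4, 5.86 at P10 and 15.6 at P25 in progenitor media. In differentiating media it was 7.37 at P10 and 11.1 at P25, and in IMOK 0.69, 0.20 and 0.18 TPM. It was higher at each later passage in progenitor media, with a slope of 1.23 per doubling (SE 0.16, edgeR adjusted p = 0.0382). The call was lost without the library of P2, of P4 or of P25 in either medium, with adjusted p of 0.374, 0.114, 0.329 (progenitor) and 0.0542 (differentiating). The slope stayed between 1.14 and 1.32 in the fits that left out 1 library.

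Myc levels within mSGc were highest at P10. The level of Myc (chr15:61816896-61821916) was 123 TPM at P2, 173 at P4, 236 at P10 and 140 at P25 in progenitor media, 207 at P10 and 200 at P25 in differentiating media, and 165, 147 and 188 TPM in IMOK. The IMOK values lay inside the mSGc range. The log2 fold change against IMOK was 0.32 (SE 0.23, edgeR adjusted p = 0.378) and at P10 it was 0.58 (SE 0.25, adjusted p = 0.220), and the slope over passage was 0.12 (SE 0.12, adjusted p = 0.728). Of 12 partners and antagonists of Myc edgeR called 0 against IMOK (1 at an unadjusted p under 0.05, as had 3922 of all 12885 genes), as did DESeq2 and limma voom. Of 12 targets of Myc edgeR called Odc1, the ornithine decarboxylase gene, lower at P10 (log2 fold change -1.53, adjusted p = 0.0448), where 4.2% of all genes were called. All 12 targets had a negative value for differentiating over progenitor media, with a median of -0.29 against -0.014 over all genes. Between media edgeR called 0 of the 12 (2 at an unadjusted p under 0.05, as had 1018 of all 12451 genes), as did DESeq2 and limma voom.

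**Figure D4:**
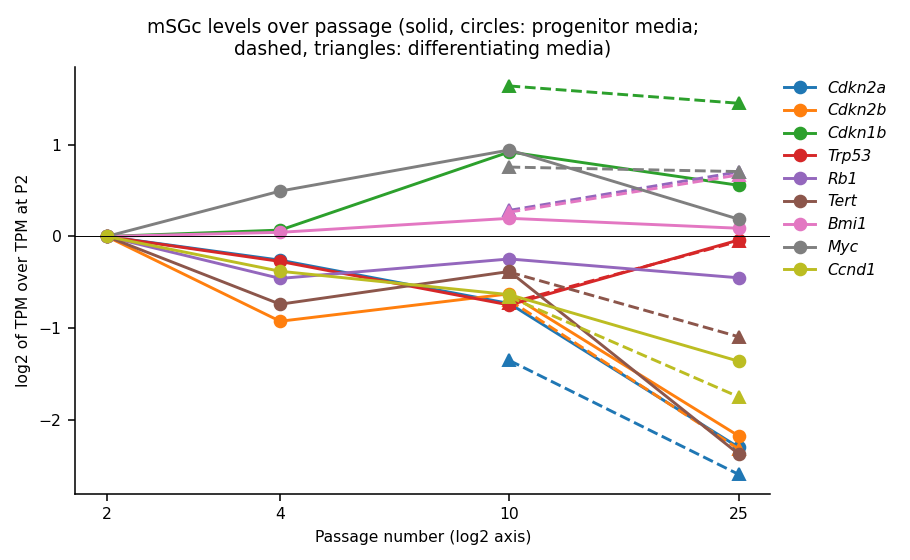
log2 of the TPM over that at P2 (vertical axis) against passage number (log2 axis) for the 9 genes in mSGc, 1 library per point, with progenitor media as circles and solid lines and differentiating media as triangles and dashed lines. At P25 in progenitor media Cdkn2a, Cdkn2b and Tert lie more than 2 log2 units below P2 (4.94-fold, 4.53-fold and 5.19-fold lower), and Cdkn1b in differentiating media lies highest.

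Over the 9 genes edgeR called 0 over passage. At an unadjusted p under 0.05 in edgeR were 4, namely Cdkn2a, Cdkn2b, Ccnd1 and Tert, as were 1648 of all 12451 genes. Over passage limma voom called 0 and DESeq2 3, Cdkn2a, Cdkn2b and Ccnd1, where DESeq2 called 5.62% of all genes. Between media edgeR called 0 of the 9, as did DESeq2 and limma voom, and edgeR called 0.0241% of all genes. There 2 had an unadjusted p under 0.05 in edgeR, Cdkn1b and Rb1, as had 1018 of all 12451 genes. The medium values have 3 residual degrees of freedom, and P2 and P4 have no library in differentiating media. Of 15 genes known to change in senescent cells 11 were tested. Against IMOK, where 14.9% of all genes were called, edgeR called 1 higher, Cxcl1, a secreted chemokine gene, with 1.33 (SE 0.26, edgeR adjusted p = 0.00915). It called 1 lower, Igfbp3, an insulin-like growth factor binding protein gene, with -3.18 (SE 0.64, adjusted p = 0.0100). DESeq2 called 2 higher and 2 lower against IMOK, where it called 2900 of all 12739 genes. For limma voom the numbers were 1 and 1, where it called 2142 of all 12885. Over passage DESeq2 called 3 lower and between media 2 higher and 1 lower, where edgeR and limma voom called 0. Igfbp3 had 19.1 to 135 TPM in mSGc and 147, 814 and 845 TPM in IMOK.

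**Figure D5:**
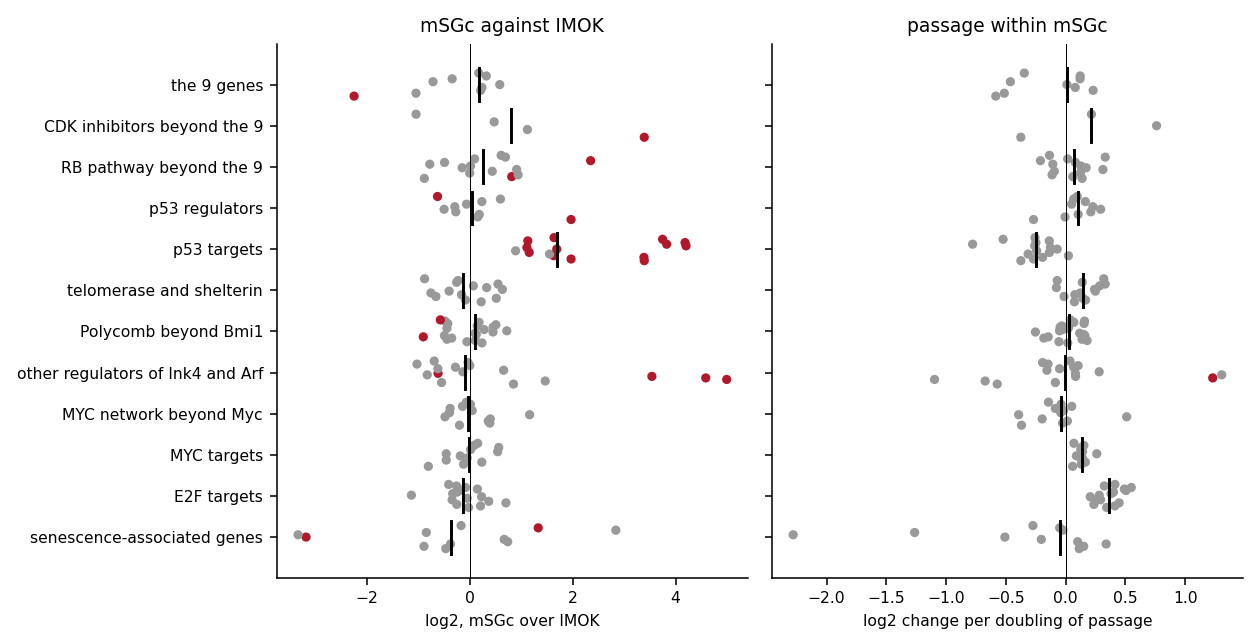
log2 differences (horizontal axes) of the genes in each fixed list, 1 point per gene tested, for mSGc against IMOK (left) and per doubling of passage within mSGc (right), with the median of a list as a black bar. Red marks an edgeR adjusted p under 0.05, which 13 of 15 p53 targets reach on the left and Tbx2 alone on the right.

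The genes whose log2(CPM + 1), with TMM factors, followed each of the 9 most closely over the 9 libraries were found by Pearson's r. They came from 12885 genes and are given as a description. For Cdkn2a they were Asap1 (r = 0.987), Trerf1 and Tmem206 (both 0.972), and for Cdkn2b Zfp108 and Frs3 (both 0.973) and Tmem184a (0.971). For Tert they were Sema3f (0.962), Slc44a3 (0.959) and Rgl3 (0.952), and for Ccnd1 Cxcl16 (0.934), Parva (0.910) and Tnfrsf23 (0.906). Trp53 was followed by Gtf2f2 (0.986), Emd (0.977) and Ankrd9 (0.961), Bmi1 by Klhl23 (0.985), Prpf18 (0.966) and Taf3 (0.960), and Cdkn1b by Med12 (0.971), Plxna2 (0.943) and Adrb1 (0.941). For Myc they were Supv3l1 (0.964), Mdn1 (0.909) and Pus3 (0.900), and for Rb1 Nfib (0.928), Rpgrip1l (0.918) and Ncoa7 (0.917).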

How the data were processed

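RNA-seq was performed on 6 mSGc and 3 IMOK libraries. The submitters' processing notes name TopHat2 2.1.1, Bowtie2 2.2.6, featureCounts 1.5.1, DESeq2 1.12.4 and mm9. The authors deposited raw counts of reads per gene, without normalization, in 1 table for each line. The annotation, strandedness and treatment of multi-mapping reads are not given in the sources used here. TPM was computed from counts and deposited gene lengths. Of 23366 entries, 27 carry dates in place of gene names (0.243% of a library's counts or less) and 4 a repeated name.

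Counts were tested with edgeR 4.0.16 (R 4.3.3), by the quasi-likelihood test with TMM factors, filterByExpr and Benjamini-Hochberg adjustment over all genes at 0.05. SE is the absolute log2 fold change over the square root of F. The fits were mSGc against IMOK (12885 genes), P10 mSGc against IMOK (13018 genes), and log2 passage with medium within mSGc (12451 genes). Alternatives were DESeq2 1.42.0, limma 3.58.1 voom, library totals, no filter, a minimum of 10 counts per library, leaving out each library, untransformed passage, progenitor media only, and P10 and P25 with passage as a block. Those for p53 targets and Tbx2 were chosen after seeing the data. Scripts were tested on simulated data.

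The members and lists were chosen with earlier results of these data known, and p53 targets had been examined in them. All 9 genes are named in every comparison. Genes of 15 other lists are named where the adjusted p was under 0.05 (at most 4 per list and comparison, by size of change) or as one of 10 chosen genes. The 3 genes most like each member and every entry within 500 kb of Cdkn2a and Cdkn2b were also taken.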

Additional observations from a re-analysis of the deposited data

Results flagged for a closer look

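In the 6 mSGc libraries the level of Bmi1 at P25 in differentiating media, 56.7 TPM, lay far above the others, which ran from 35.6 to 42.8 TPM. The 6 libraries differ in passage and medium and are not replicates, and chance alone flags about 1 in 20 such groups.

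From P10 to P25 the levels of Rb1 and Bmi1 moved in opposite directions in the 2 media. The log2 change of Rb1 was -0.21 in progenitor and 0.42 in differentiating media, a difference of 0.63, and that of Bmi1 was -0.11 and 0.41, a difference of 0.52. Each change rests on 1 library per condition, and neither difference was tested.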

How the results depend on the processing

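Against IMOK, 1 of the 9 genes was called (Cdkn2a) in every alternative run, except that leaving out single libraries gave 0 to 1, with 0 without IMOK replicate 1. At P10 the number was 0 with library totals in place of TMM factors, with at least 10 counts in every library and with limma voom, and 0 to 1 when single libraries were left out. There the log2 fold change of Cdkn2a stayed between -2.82 and -1.99 over 10 alternatives, with adjusted p from 4.00e-06 (DESeq2) to 0.221. The number of p53 targets called higher against IMOK ran from 9 to 13 when single libraries were left out, where 738 to 1918 of all genes were called. At P10 it ran from 2 to 15 when single IMOK libraries were left out, where 36 to 3416 of all genes were called. Over passage, 3 of the 9 genes were called with DESeq2, 1 with an untransformed passage number and 0 to 2 when single libraries were left out. Between media none was called in any alternative.

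The slope of Rb1 over passage turned to -0.0066 with library totals and to -0.034 in progenitor media only, and ranged from -0.035 to 0.11 without single libraries. In such fits the slope of Myc ranged from -0.050 to 0.35 and that of Trp53 from -0.057 to 0.21. The difference between media turned for Cdkn2b to 0.031 with library totals and to 0.10 with limma voom. Without single libraries it ranged from -0.62 to 0.27 for Cdkn2b, -0.72 to 0.087 for Trp53, -0.47 to 0.24 for Myc, -0.11 to 0.96 for Tert and -0.079 to 0.39 for Bmi1. The causes were not tested. With media paired within P10 and P25, passage being a block, 0 of the 9 genes were called and no direction changed. The Tert values rest on 35 to 352 counts per library.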
